A study of Mus musculus with 9 samples.

Results

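Integrins are receptors of the cell surface made of an alpha and a beta subunit, and laminins are trimers of an alpha, a beta and a gamma chain that form the sheet of the basement membrane. Genes of mouse embryonic fibroblasts (MEFs) whose symbol names an integrin alpha or beta subunit (Itga, Itgb) or a laminin chain (Lama, Lamb, Lamc) were collected, without their binding proteins and look-alikes such as Itgb1bp1, Itgbl1 and Itgb2l. Those reported here number 36 of the 47937 genes in the table, with 18 alpha and 8 beta subunits and 5 alpha, 3 beta and 2 gamma laminin chains. RNA sequencing of MEFs that lack a pair of H3K9 KMT (histone H3 lysine 9 methyltransferases) was used to follow them. In the paper, which was assumed to describe these cells, WT is the parental Eset1-conditional clone, with a tamoxifen-inducible Cre and a floxed Eset1. Both mutants were derived from it. The sample titles name no tamoxifen, so Eset1 was taken as not deleted. After gene disruption, the paper reports, an inducible Cre with puromycin resistance was added again and the lines stayed under puromycin. Whether WT was handled alike is not stated. S1S2 cells lack Suv39h1 and Suv39h2, G9Gl cells lack G9a and Glp, and each genotype has 3 libraries. Each mutant was made with CRISPR/Cas9 frameshifts and is a single clone chosen by loss of the proteins. Genotype, clone and any such difference in handling cannot be told apart, and p-values measure only the spread between libraries.

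Integrins tie the matrix outside the cell to the actin cytoskeleton. The alpha subunit largely sets the ligand: alpha3, alpha6 and alpha7 bind laminin, alpha1, alpha2, alpha10 and alpha11 bind collagen, and alpha5, alphav and alpha8 read the RGD motif of fibronectin and vitronectin. Laminin trimers are named by their chains, and Lama3 and Lamb3 are known from laminins that anchor epithelial cells.

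Libraries held between 21319778 and 32157623 counts, and the integrin and laminin genes took between 0.309% and 0.384% of them. The floor of 3 counts lay between 0.0923 and 0.141 CPM (counts scaled to the size of the library with TMM factors), and covers counting error only. Suv39h1 mRNA lay between 38.3 and 44.2 CPM in S1S2 against at least 103 CPM in WT, while Suv39h2 mRNA was higher in S1S2 (52.7 to 57.4 CPM) than in WT (33.2 to 34.4 CPM). Ehmt1 (Glp) lay between 48.6 and 51.8 CPM in G9Gl against at least 102 CPM in WT, and Ehmt2 (G9a) between 51.9 and 57.4 CPM against at least 114 CPM. Fibroblast marker genes summed to 9202 to 10466 CPM in WT, 6531 to 6591 CPM in S1S2 and 7093 to 7939 CPM in G9Gl, with Lum at or near 0 throughout. Of the 10 tested, 6 were called lower in S1S2 (at least 2-fold, with an adjusted p of at most 0.01 from edgeR), against 4.34% of all genes, and 3 lower and 1 higher in G9Gl, against 3.40% and 6.77%. The collagen Col1a2 lay at 2395 ± 90.9 CPM in WT and 395 ± 11.9 CPM in S1S2 (SD, n = 3), whereas Vim was higher in S1S2 (2399 ± 100.4 CPM against 1458 ± 97.6 CPM in WT) and Thy1 rose in G9Gl from 4.98 ± 0.537 to 38.3 ± 2.48 CPM and fell in S1S2 by 1.29 on the log2 scale (adjusted p = 5.75e-07). In such bulk samples, fewer cells of a type and less RNA per cell cannot be told apart.

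Of the 36 genes, 26 had enough reads to be tested. Calls required a fold change of 2 or more and an adjusted p no higher than 0.01, from the quasi-likelihood test of edgeR with Benjamini-Hochberg adjustment over all 15540 genes tested. Against WT, 9 of the 26 were called in S1S2 (6 higher and 3 lower), where 9.0% of all genes tested were called, 4.66% higher and 4.34% lower. In G9Gl, 9 of the 26 were called (8 higher and 1 lower), where 10.2% of all genes were called, 6.77% higher and 3.40% lower. Between the mutants 8 were called (5 higher and 3 lower in G9Gl), against 13.1% of all genes, 7.97% higher and 5.08% lower. The median log2 fold change of the 26 was 0.04 in S1S2 and 0.29 in G9Gl, both also with the barely detected Itga2 set to its lower bound, while the medians over all genes were -0.0032 and -0.0067. Both comparisons use the same WT libraries. The higher calls include Itga2 and Itgb6 in both mutants, Itgb3 in S1S2 and Lama3 in G9Gl, which passed the filter on low counts only through libraries in which they were high, so these counts do not support a difference from all genes. With at least 10 counts required in every library, 5 genes were called in S1S2, 4 in G9Gl and 3 between the mutants. That filter tests fewer genes, and the share of all genes called under it was not counted.

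In all, 12 genes were called in at least 1 comparison. Itga2, Itga3, Itgb6 and Lamc3 rose in both mutants against WT. Lama2 and Lamb3 fell in S1S2 and rose in G9Gl. Itgb3 and Itgb7 rose and Itgb8 fell in S1S2 without being called in G9Gl, while Itgb2 and Lama3 rose and Itgb4 fell in G9Gl without being called in S1S2.

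**Figure D1:**
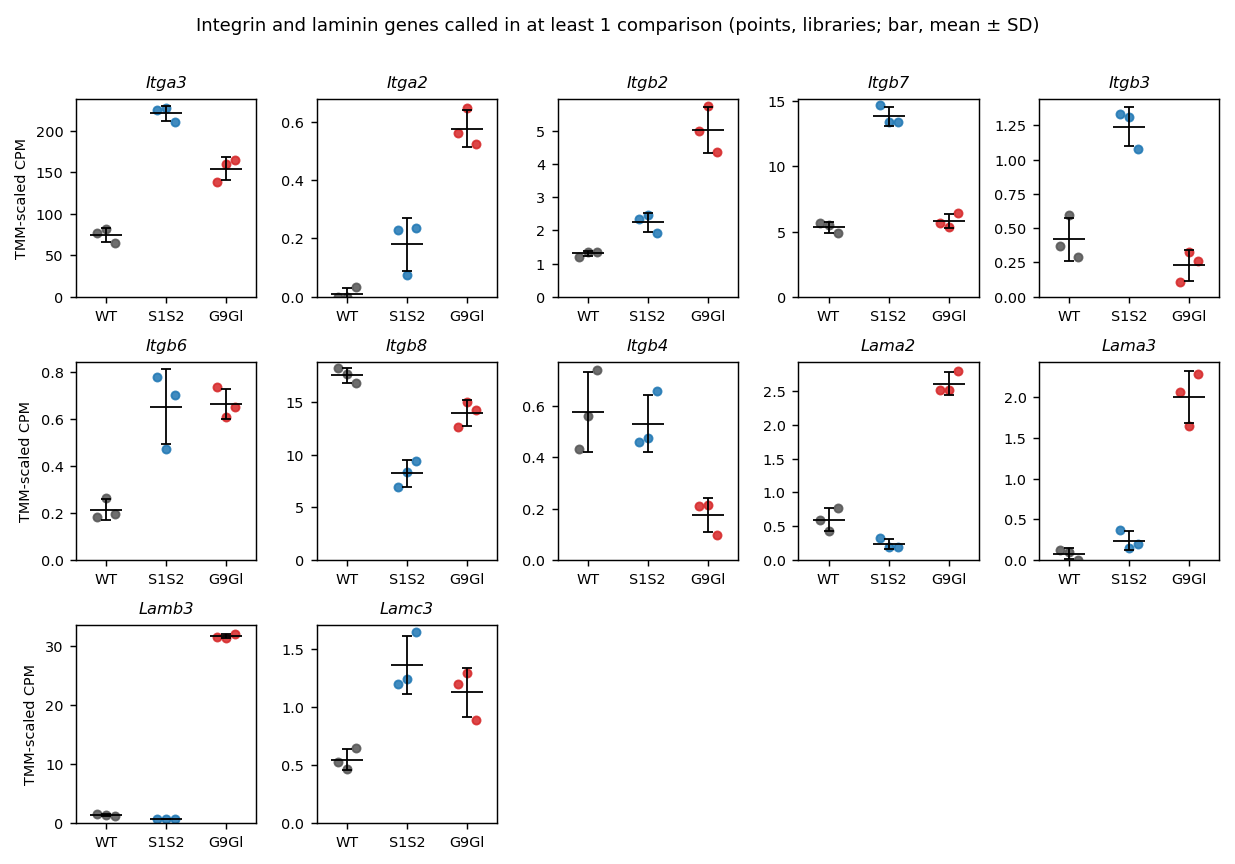
Level of the 12 integrin and laminin genes called in at least 1 comparison, in TMM-scaled CPM from 0 on a scale of its own for each gene, with a point per library and the mean ± SD of 3 libraries per genotype as bars. Lamb3 and Lama3 are high in the 3 G9Gl libraries, while Itgb7 and Itgb3 are high in the 3 S1S2 libraries.

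The sequence upstream of the start site is shown for 3 genes that rose in G9Gl, since they differ widely in CpG dinucleotides, the pairs that are methylated in DNA. RefSeq promoters of the GRCm38.p6 build were examined for 23 of the 36 genes, in 26 windows. Those of the remaining genes, among them the called Itgb2, Itgb3, Itgb4, Lama3 and Lamc3, were not examined. The 250 bases before the RefSeq start are printed 5′ to 3′ on the strand of the gene, with each CpG in capitals. They lie at chr1:193301744-193301993 (plus strand) for Lamb3, chr13:114932101-114932350 (minus strand) for Itga2 and chr11:95076715-95076964 (minus strand) for Itga3. The gene positions given below come from GENCODE and can start elsewhere. The Lamb3 window lies inside its GENCODE gene (193207699 to 193343878), and the Itga3 window overlaps the start of its gene (95044474 to 95076801).
Lamb3: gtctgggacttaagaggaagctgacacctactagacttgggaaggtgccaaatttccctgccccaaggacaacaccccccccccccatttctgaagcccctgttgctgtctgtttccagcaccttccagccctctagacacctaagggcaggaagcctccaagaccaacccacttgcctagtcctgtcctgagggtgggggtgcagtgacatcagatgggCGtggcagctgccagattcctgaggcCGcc
Itga2: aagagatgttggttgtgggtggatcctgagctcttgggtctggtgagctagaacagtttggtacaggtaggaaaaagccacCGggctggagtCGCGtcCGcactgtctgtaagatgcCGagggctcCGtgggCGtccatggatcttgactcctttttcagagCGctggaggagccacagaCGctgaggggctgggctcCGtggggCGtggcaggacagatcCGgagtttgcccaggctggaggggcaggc
Itga3: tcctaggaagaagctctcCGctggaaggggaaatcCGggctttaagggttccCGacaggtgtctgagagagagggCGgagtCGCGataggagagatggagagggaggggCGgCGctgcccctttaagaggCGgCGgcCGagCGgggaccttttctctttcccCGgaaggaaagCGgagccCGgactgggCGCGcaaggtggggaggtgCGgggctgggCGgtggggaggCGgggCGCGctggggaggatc

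The Lamb3 window held 2 CpG, the Itga2 window 12 and the Itga3 window 22, where the median over 32851 RefSeq windows was 6. Lamb3 and Itga3 each have a second RefSeq start, with 3 and 5 CpG upstream. Over the 10 windows of 7 called genes the median was 5 (0 to 22), and over the 16 windows of genes not called it was 10.5 (2 to 21), including genes too low to be tested. Read on both strands, the GC box GGGCGG was present in 9 of the 26 windows and in 32.7% of all windows, and Itga3 holds it upstream of both starts. The AP-1 motif TGANTCA was found in the Itgax window alone, against 6.75% of all windows, and the TATA motif TATAAA in 0 of the 26, against 12.4%. These are matches of letters and not sites shown to be bound.

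Both Lamb3 and Lama3, the chains known from epithelia, rose in G9Gl. Lamb3 (chromosome 1, 193207699 to 193343878, GRCm38) stood at 1.51, 1.29 and 1.10 CPM in the WT libraries, 0.598, 0.583 and 0.658 CPM in S1S2, and 31.7, 31.5 and 32.1 CPM in G9Gl. The 3 genotypes did not overlap, and the G9Gl libraries lay closely together. The G9Gl level was 24.3-fold that of WT, or 4.60 ± 0.126 (SE) on the log2 scale (adjusted p = 6.33e-16), and 51.6-fold that of S1S2. In S1S2 Lamb3 fell by 1.09 on the log2 scale (SE 0.135, adjusted p = 0.000305). This fall was just past the fold limit, and was -0.96 without WT replicate 1 and also -0.96 once the median change of chromosome 1 genes (-0.13) was removed.

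Lama3, an alpha chain of epithelial laminins, was barely detected outside G9Gl. Its counts were 4, 3 and 0 in WT, 8, 4 and 4 in S1S2, and 59, 46 and 70 in G9Gl, where the level was 2.00 ± 0.322 CPM (SD, n = 3). The log2 fold change was 4.67 in G9Gl (SE 0.472, adjusted p = 1.27e-07), a size that rests on 7 WT counts. Lama3 passed the filter on low counts only through the G9Gl libraries, where it was high. In S1S2 the difference from WT missed the threshold (log2 fold change 1.56, SE 0.546, adjusted p = 0.0732).

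Single epithelial markers were also higher in a mutant, Krt14 in G9Gl and Krt8 in S1S2. The summed level, over 8 genes of which 3 were tested (2 called higher in S1S2 and 1 in G9Gl), lay between 0.298 and 0.580 CPM in WT, 5.69 and 6.34 CPM in S1S2, and 4.49 and 5.45 CPM in G9Gl. The keratin Krt14 had 0 counts in each WT library, 2, 1 and 1 in S1S2, and 109, 118 and 156 in G9Gl, where it made up most of the sum, while Krt8 made up most of the S1S2 sum. In S1S2 the junction gene Ocln had 13, 16 and 12 counts against 0 in each WT library, Cldn4 17, 11 and 1 against 1, 0 and 1, and Krt18 0, 8 and 3 against 0. In G9Gl Cldn4 had 8, 4 and 2 counts, Ocln at most 1 and Krt18 0. Of the other markers, Krt5 (0 counts in every library), Cdh1 (at most 3 counts) and Epcam were at or near 0, Epcam with 9, 6 and 10 counts in WT, 2, 6 and 6 in S1S2 and fewer still in G9Gl (1, 2 and 3). The part of epithelial-like RNA in the rise of Lamb3 and Lama3 was not tested.

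Lama2, the alpha chain of the laminin of muscle and nerve (chromosome 10, 26980036 to 27619758), moved in opposite directions in the mutants. Its levels were 0.584, 0.430 and 0.773 CPM in WT, 0.322, 0.182 and 0.188 CPM in S1S2, and 2.53, 2.51 and 2.81 CPM in G9Gl. No libraries overlapped between genotypes. The rise in G9Gl was 4.36-fold (log2 fold change 2.12, SE 0.223, adjusted p = 8.45e-07). The S1S2 value of -1.37 ± 0.299 (SE) on the log2 scale (adjusted p = 0.00630) rests on 4 to 7 counts per S1S2 library. This fall missed the threshold without WT replicate 1 (-1.39, adjusted p = 0.0146), WT replicate 3 (-1.15, 0.0308), S1S2 replicate 2 (-1.21, 0.0384) or S1S2 replicate 3 (-1.27, 0.0250), and in a fit of WT and S1S2 alone (adjusted p = 0.0119). An antisense gene overlaps 3.86% of its exon length, and counting was not stated to use strand. Muscle markers moved with it in G9Gl, with summed levels of 2.09 to 2.71 CPM in WT, 2.51 to 3.48 CPM in S1S2 and 7.40 to 7.997 CPM in G9Gl, nearly all of it Des. The muscle regulator Myod1 had 0 counts in every library. Schwann cell and neural crest markers summed to 10.7 to 12.3 CPM in WT, 7.18 to 8.18 CPM in S1S2, where Lama2 was lowest, and 10.7 to 11.4 CPM in G9Gl, most of it Erbb3, while Sox10 had at most 1 count in a library. A part of muscle-like or Schwann-like RNA in the values of Lama2 was not tested.

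Lamc3, a gamma chain of restricted expression, was low but higher in both mutants. It stood at 0.523, 0.463 and 0.645 CPM in WT, 1.20, 1.24 and 1.65 CPM in S1S2, and 1.19, 1.29 and 0.881 CPM in G9Gl, so that neither mutant overlapped WT. It was above WT by 1.31 in S1S2 (SE 0.186, adjusted p = 0.000727) and by 1.03 on the log2 scale in G9Gl (SE 0.200, adjusted p = 0.00489). The G9Gl call was lost without WT replicate 1 (adjusted p = 0.0200), WT replicate 2 (0.0224), G9Gl replicate 1 (0.0179) or G9Gl replicate 2 (0.0263).

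The abundant laminin chains moved by less than the fold limit. Per kb of summed exon length, the scale on which genes can be compared, Lamc1 led in WT with 56.0 ± 0.927 CPM per kb, followed by Lamb2 with 36.5 ± 0.801, Lama5 with 31.8 ± 2.35 and Lamb1 with 21.2 ± 2.22 (SD, n = 3). Lama5 and Lamb1 changed places when the longest transcript was taken as the length. The common gamma chain Lamc1 stood at 463 ± 7.67 CPM in WT, 467 ± 11.6 CPM in S1S2 and 408 ± 3.08 CPM in G9Gl (SD, n = 3), a log2 fold change of -0.18 in G9Gl (adjusted p = 0.000700) that became 0.08 once the median of chromosome 1 genes (-0.26) was removed. The broadly expressed alpha chain Lama5 was higher than WT in S1S2 by 0.46 (adjusted p = 4.81e-07) and in G9Gl by 0.74 on the log2 scale (adjusted p = 7.90e-10). It reached 53.0 ± 0.874 CPM per kb in G9Gl, above Lamc1 with 49.4 ± 0.373 (53.6 with its longest transcript as the length), and made up over 99% of the summed alpha chain level in every library. Lamb1 differed from WT by 0.46 in S1S2 and by 0.49 in G9Gl (adjusted p of 3.98e-06 and 1.66e-06). Lamb2 was slightly lower in S1S2 (-0.15) and slightly higher in G9Gl (0.15), at adjusted p of 0.00452 and 0.00353, and the S1S2 value was -0.08 without the chromosome median.

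Shares of the summed level per kb put these changes side by side, as a description without a test. Lamb3 made up 0.339 ± 0.0491% of the beta chain level in WT, 0.149 ± 0.00768% in S1S2 and 6.38 ± 0.0668% in G9Gl (SD, n = 3). Lama3 was 0.349 ± 0.0564% of the alpha chain level in G9Gl. Even there, both were minor beside Lama5, Lamb1 and Lamb2.

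**Figure D2:**
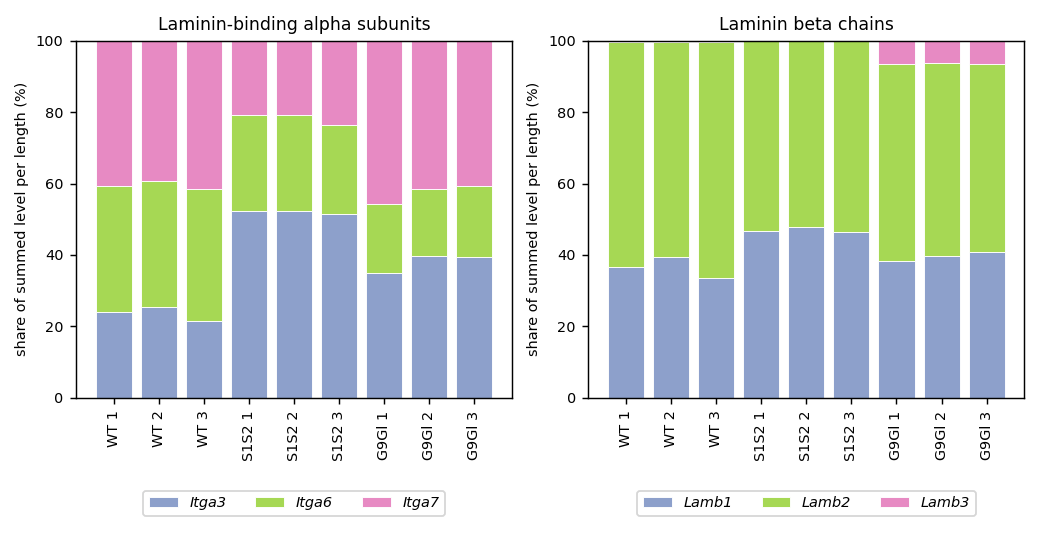
Share in percent of the summed level per kb of exon length taken by each laminin-binding alpha subunit and each laminin beta chain, with a stacked bar per library. Itga3 takes more of its group in S1S2 and G9Gl than in WT, and Lamb3 is visible in the G9Gl libraries while it is too low to be seen in the others.

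Among the receptors of laminin, Itga3 (chromosome 11, 95044474 to 95076801), the alpha subunit that binds the laminins of Lama3 and Lama5, rose in both mutants. It stood at 76.9, 81.5 and 65.0 CPM in WT, 225, 228 and 210 CPM in S1S2, and 139, 159 and 165 CPM in G9Gl. No libraries overlapped between genotypes. S1S2 was above WT by 1.57 ± 0.104 on the log2 scale (SE; adjusted p = 1.68e-11). G9Gl was above WT by 1.05 ± 0.124 (adjusted p = 2.18e-09), or 0.96 without WT replicate 3, which is short of the fold limit. G9Gl differed from S1S2 by -0.52 (adjusted p = 8.28e-06), under the fold limit.

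The other laminin-binding alpha subunits moved differently. Itga6 was at 19.7 ± 0.0732 CPM per kb in WT and 19.6 ± 1.41 in S1S2 and was lower in G9Gl at 13.8 ± 0.703 (SD, n = 3), which is -0.52 on the log2 scale (adjusted p = 2.34e-07). Itga7, best known from muscle, was lower in S1S2 (log2 fold change -0.47, adjusted p = 1.50e-07) and higher in G9Gl (0.44, adjusted p = 2.17e-07), and the mutants differed by 0.91 (adjusted p = 1.39e-11). Once the median of chromosome 10 genes was removed, the Itga7 values were -0.31, 0.40 and 0.71. None of these passed the fold limit. Itga3 thereby went from 23.6 ± 2.03% of the summed level per kb of the 3 subunits in WT to 52.0 ± 0.535% in S1S2 and 38.0 ± 2.67% in G9Gl (SD, n = 3). With the longest transcript as the length these shares were 15.1%, 38.2% and 26.1%. Itga3 ranked 5 among the alpha subunits in WT, at 13.0 ± 1.49 CPM per kb, and stood beside Itgav at the top in S1S2, at 38.7 ± 1.67 against 37.4 ± 0.756 (SD, n = 3), although below Itgav with the longest transcript as the length.

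Itgb4, the partner of alpha6 in the hemidesmosomes that hold epithelia to the basement membrane, was low and fell in G9Gl. It stood at 0.431, 0.562 and 0.741 CPM in WT, 0.460, 0.474 and 0.658 CPM in S1S2, and 0.211, 0.216 and 0.0979 CPM in G9Gl. All G9Gl libraries lay below all others, with 3 to 6 counts each. The log2 fold change in G9Gl was -1.71 (SE 0.320, adjusted p = 0.00243), but the call was lost without WT replicate 3 (-1.49, adjusted p = 0.0151) or G9Gl replicate 3 (-1.42, 0.0208). A lincRNA on the opposite strand overlaps 7.66% of the exon length.

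Itgb1, the beta subunit shared by most of the alpha subunits here, was by far the highest integrin gene, at 210 ± 14.0 CPM per kb in WT, 264 ± 7.498 in S1S2 and 255 ± 4.77 in G9Gl (SD, n = 3). It took 86.6% of the summed beta subunit level in WT and 87.8% and 87.2% in S1S2 and G9Gl. It was above WT by 0.33 in S1S2 and by 0.28 in G9Gl on the log2 scale (adjusted p of 2.04e-05 and 0.000111), and the S1S2 value was 0.18 once the median of chromosome 8 genes (0.15) was removed. Itgav, which pairs with Itgb1 and several other beta subunits, led the alpha subunits of WT with 30.0 ± 0.0232 CPM per kb and was likewise above WT, by 0.32 in S1S2 and by 0.29 in G9Gl (adjusted p of 1.72e-06 and 4.29e-06). The fibronectin receptor Itga5 differed from WT by 0.01 ± 0.071 in S1S2 (SE, log2 scale; adjusted p = 0.897) and was higher in G9Gl (0.65, SE 0.079, adjusted p = 5.84e-08).

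Besides Itgb1, the beta subunits Itgb3, Itgb5, Itgb6 and Itgb8 pair with alphav, and they diverged. Itgb8 (chromosome 12, 119158022 to 119238802), which with alphav activates latent TGF-beta, stood at 18.3, 17.7 and 16.9 CPM in WT, 6.90, 8.38 and 9.45 CPM in S1S2, and 12.7, 15.05 and 14.3 CPM in G9Gl. The genotypes did not overlap, and S1S2 was lowest. Itgb8 fell in S1S2 by 1.09 ± 0.136 on the log2 scale (SE; adjusted p = 1.19e-07), a value that was -0.99 and short of the fold limit without S1S2 replicate 1. In G9Gl its log2 fold change was -0.33 (adjusted p = 0.00791).

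Itgb3, the beta subunit of the vitronectin receptor, rose in S1S2. It stood at 0.369, 0.595 and 0.290 CPM in WT, 1.33, 1.31 and 1.08 CPM in S1S2, and 0.105, 0.323 and 0.261 CPM in G9Gl. WT and G9Gl overlapped, while every S1S2 library lay above both, and Itgb3 passed the filter on low counts only with the S1S2 libraries. The log2 fold change in S1S2 was 1.57 (SE 0.276, adjusted p = 0.000763), and G9Gl was 2.42 below S1S2 on the log2 scale (adjusted p = 3.21e-05).

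Itgb6, which is known from epithelia, stood at 0.185, 0.264 and 0.193 CPM in WT, 0.781, 0.474 and 0.705 CPM in S1S2, and 0.737, 0.611 and 0.653 CPM in G9Gl. Neither mutant overlapped WT. Itgb6 was above WT by 1.57 in S1S2 (SE 0.232, adjusted p = 0.00199) and by 1.62 in G9Gl on the log2 scale (SE 0.143, adjusted p = 0.00115). The WT libraries held 6 to 8 counts each, which lay below the filter on low counts. With so few counts these SE are smaller than counting error. The S1S2 call was lost without WT replicate 1 (1.47, adjusted p = 0.0121) or S1S2 replicate 1 (1.42, 0.0135). Itgb5, the most abundant of these 4 at 28.3 ± 1.16 CPM per kb in WT (SD, n = 3), differed from WT by 0.07 in S1S2 (SE 0.040, adjusted p = 0.252) and by 0.18 on the log2 scale in G9Gl (SE 0.063, adjusted p = 0.00570), or by 0.38 once the median of chromosome 16 genes (-0.20) was removed.

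**Figure D3:**
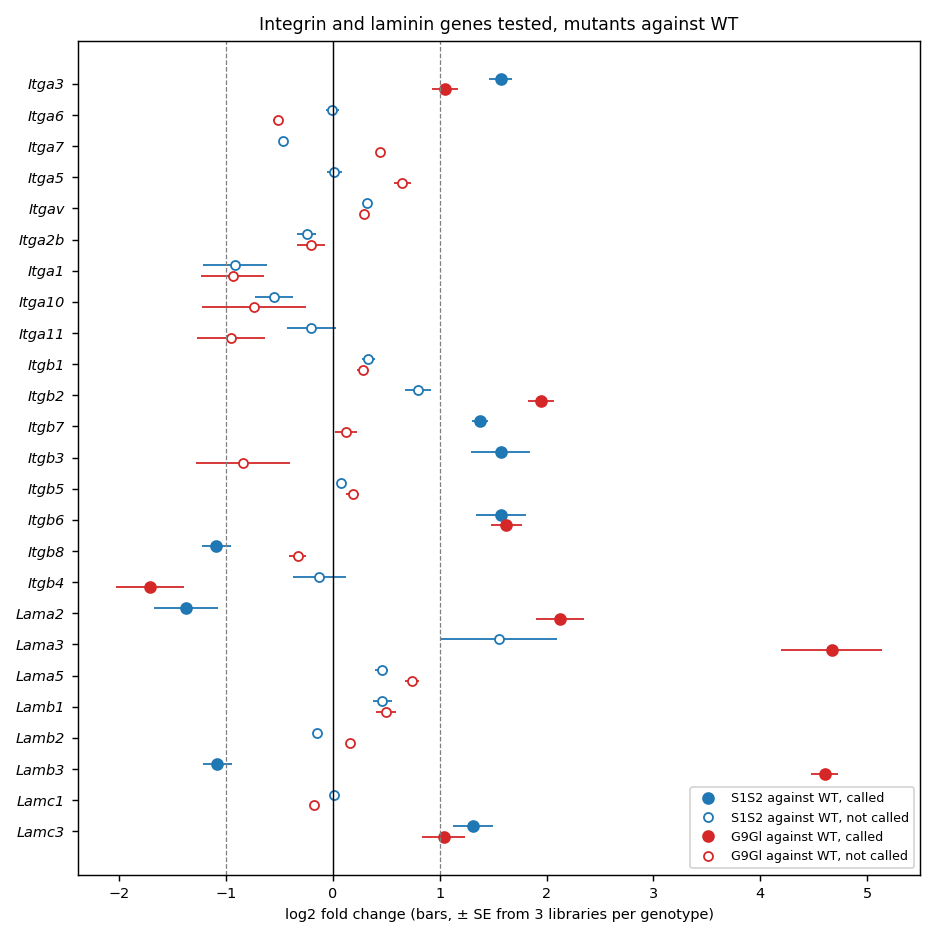
Log2 fold change of 25 of the 26 tested genes in S1S2 and G9Gl against WT, with bars of ± SE from 3 libraries per genotype, filled points for called genes and dashed lines at a fold change of 2. Itga2 is left out because WT held 1 count of it, and Lamb3 and Lama2 lie on opposite sides of 0 in the mutants. The bars of genes with few counts can be shorter than counting error.

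Itgb7 and Itgb2, beta subunits known from leukocytes, were each called in 1 mutant. Itgb7 stood at 5.63, 5.49 and 4.87 CPM in WT, 14.7, 13.4 and 13.4 CPM in S1S2, and 5.65, 5.32 and 6.40 CPM in G9Gl. S1S2 alone stood apart, 1.38 ± 0.078 above WT on the log2 scale (SE; adjusted p = 7.31e-09), while G9Gl differed from WT by 0.12 ± 0.101 (adjusted p = 0.397) and the mutants differed by -1.25 (adjusted p = 1.45e-08). Itgb2 stood at 1.20, 1.36 and 1.35 CPM in WT, 2.34, 2.48 and 1.93 CPM in S1S2, and 4.98, 5.75 and 4.37 CPM in G9Gl. The genotypes again did not overlap. Itgb2 was above WT by 1.95 in G9Gl (SE 0.125, adjusted p = 3.37e-08) and 0.80 in S1S2 (SE 0.120, adjusted p = 0.00218), and the difference between the mutants, 1.15 (adjusted p = 1.00e-05), was 0.96 once chromosome medians were removed.

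The alpha partners of Itgb2 and Itgb7 were close to absent. Itga4 and Itgad had 0 counts, and the largest count in a library was 6 for Itgae, 2 for Itgal, 3 for Itgam and 6 for Itgax. Itgax had 0 counts in each WT library, 1, 0 and 0 in S1S2, and 2, 3 and 6 in G9Gl. Itgae had 2, 0 and 4 counts in WT, 2, 0 and 1 in S1S2, and 6, 3 and 4 in G9Gl. Hematopoietic markers summed to 4.37 to 4.56 CPM in WT, 3.24 to 4.05 CPM in S1S2 and 4.67 to 4.93 CPM in G9Gl, nearly all of it Cd68, while Adgre1, Cd3e, Gp9 and Pf4 had 0 counts in every library. The pan-leukocyte gene Ptprc had 2, 2 and 4 counts in G9Gl and 0 in all other libraries. Csf1r, a receptor of macrophages, had 3, 10 and 8 counts in G9Gl against 1 in each WT library and at most 1 in S1S2. The part of leukocyte-like RNA in the rise of Itgb2 was not tested. Itgam shares 76.2% of its 75-base sequences with other genes, so its count is uncertain.

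Of the collagen receptors, Itga2 was called in both mutants, although it passed the filter on low counts only through the G9Gl libraries. It had 0, 0 and 1 counts in WT, 5, 2 and 5 in S1S2, and 16, 18 and 16 in G9Gl, where the level was 0.577 ± 0.0635 CPM (SD, n = 3). Over the summed libraries, the S1S2 to WT ratio was 16.0 (95% counting interval 2.36 to 683, 12 counts against 1) and the G9Gl to WT ratio 53.9 (9.24 to 2172, 50 counts against 1). The adjusted p was 0.00540 in S1S2 and 9.33e-06 in G9Gl, and the S1S2 call was lost without WT replicate 1 (0.0267), WT replicate 2 (0.0221), S1S2 replicate 1 (0.0242) or S1S2 replicate 3 (0.0222). In a fit of WT and S1S2 alone Itga2 was too low to be tested. G9Gl was also above S1S2 (log2 fold change 1.72, SE 0.367, adjusted p = 0.00450), a call that DESeq2 did not make (adjusted p = 0.0259) and that was lost without S1S2 replicate 2 (1.30, adjusted p = 0.0429) or G9Gl replicate 1 (0.0112), replicate 2 (0.0174) or replicate 3 (0.0105).

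Itga1 lies 20995 bases from Itga2 on chromosome 13 with no protein-coding gene between them, and its values lay on the other side of WT. Its log2 fold changes were -0.92 in S1S2 (SE 0.298, adjusted p = 0.0201) and, with a like size, -0.94 in G9Gl (SE 0.296, adjusted p = 0.0149). Without WT replicate 2, Itga1 was called lower in both mutants. Like Itga1, the genes Itga10, Itga11 and Itga2b passed the p limit in no comparison with all libraries, with adjusted p of 0.0385 (Itga11 in G9Gl) or more. Itga10 shares 18.5% and Itga1 10.5% of their 75-base sequences with other genes.

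Of the 10 genes not tested, Lama4, a laminin chain of blood vessels, had 5, 4 and 8 counts in WT, 0 in each S1S2 library, and 3, 2 and 0 in G9Gl. A count of 0 allows up to 3 counts, or 0.109 to 0.141 CPM in S1S2, which makes the S1S2 level at least 1.28-fold lower against a floor of 3 counts per library. Lama4 was called lower in S1S2 once the filter on low counts was dropped. Itga8 reached 5 counts, Itga9 1 count and Lama1 3 counts in a library.

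Partners of integrins and laminins were taken from 4 lists with 113 genes, of which 94 were tested. In S1S2 15 of them were called (10 higher, 5 lower), or 16.0% against 9.0% of all genes. In G9Gl 19 were called (13 higher, 6 lower), or 20.2% against 10.2%, and between the mutants 22 (12 higher, 10 lower in G9Gl), or 23.4% against 13.1%. Their median log2 fold change was 0.13 in S1S2 and 0.26 in G9Gl. The lists were chosen with earlier results of these data known, so the shares given for them do not support a difference from all genes.

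Among 16 basement membrane partners tested, 5 were called in S1S2 and 6 in G9Gl, each with 3 higher, or 31.2% and 37.5% against 9.0% and 10.2% of all genes. The list includes Col4a6, with 6, 3 and 0 counts in WT, 0 in each S1S2 library, and 18, 26 and 33 in G9Gl. Col4a6 passed the filter on low counts only through the G9Gl libraries. Npnt (nephronectin, a ligand of alpha8 beta1) rose in S1S2 from 17.3 ± 0.821 to 66.8 ± 3.45 CPM (SD, n = 3), or by 1.95 on the log2 scale (adjusted p = 1.94e-13), beside Itga8 counts of at most 5. Fras1, which joins epithelium to the matrix below it, rose in S1S2 (log2 fold change 1.87, adjusted p = 1.77e-10) and fell in G9Gl (-2.84, adjusted p = 1.81e-10). Fbln1 (fibulin-1) fell in both, by 1.31 and 2.48 on the log2 scale. Col18a1, a collagen of basement membranes, rose in both, by 1.09 in S1S2 and 1.44 in G9Gl, and Nid1 (nidogen-1), which links laminin to collagen IV, rose by 1.27 in G9Gl.

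Among the other ligands, Postn (periostin, bound by alphav integrins) moved in opposite directions in the mutants. It stood at 51.6 ± 2.80 CPM in WT, 7.22 ± 0.997 CPM in S1S2 and 126 ± 5.67 CPM in G9Gl (SD, n = 3), log2 fold changes of -2.82 (adjusted p = 2.06e-14) and 1.29 (adjusted p = 1.05e-11). Of 16 ligands tested, 3 were called in S1S2 (2 higher) and 5 in G9Gl, all 5 higher, or 18.8% and 31.2% against 9.0% and 10.2% of all genes. Tnc (tenascin-C) rose in G9Gl from 57.0 ± 4.52 to 488 ± 28.1 CPM (log2 fold change 3.10, adjusted p = 1.25e-16) and Thbs1 (thrombospondin-1) by 1.06. The matricellular protein gene Ccn2 rose in both mutants, by 1.67 and 2.35 on the log2 scale, and so did the related Ccn1, by 1.05 and 1.03.

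Inside the cell, 3 of 43 adaptors and kinases were called in S1S2 (2 higher) and 6 in G9Gl (4 higher), or 6.98% and 14.0%, near the 9.0% and 10.2% of all genes. Ptk2b, the kinase related to focal adhesion kinase, rose in both mutants, with 4.89 ± 0.694 CPM in WT, 15.2 ± 0.202 CPM in S1S2 and 33.0 ± 3.18 CPM in G9Gl (SD, n = 3), log2 fold changes of 1.64 (adjusted p = 8.78e-10) and 2.76 (adjusted p = 1.99e-13). The related docking proteins Bcar1 and Nedd9 moved in opposite directions in S1S2, by 1.07 and -1.03. In G9Gl, Tns4 and Kank3 rose by 2.38 and 1.59, and Fermt3 (kindlin-3, the kindlin of blood cells) fell by 1.01.

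Of 19 membrane proteins that associate with integrins, 4 were called in S1S2 (3 higher), or 21.1% against 9.0% of all genes. In G9Gl 2 were called (1 higher), or 10.5%, near the 10.2% of all genes. Lrrc32 (GARP), which presents latent TGF-beta to alphav beta8, rose in S1S2 from 6.82 ± 1.67 to 25.4 ± 1.95 CPM (SD, n = 3; log2 fold change 1.90, adjusted p = 3.77e-09), where Itgb8 was lower. In G9Gl it stood at 3.40 ± 0.573 CPM, a log2 fold change of -1.005 that lies on the fold limit and was short of it with DESeq2, with the replicate block (-0.99) and without WT replicate 1 (-0.94), WT replicate 2 (-0.86), G9Gl replicate 1 (-0.89) or G9Gl replicate 3 (-0.996). Tspan32, a tetraspanin, fell by 2.46 in S1S2 and rose by 1.95 in G9Gl. The syndecan gene Sdc4 rose by 1.01 in S1S2.

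Other partner calls close to the fold limit also depended on single libraries. Without WT replicate 3, the S1S2 values of Col18a1 (0.98), Ccn1 (0.96), Bcar1 (0.97) and Sdc4 (0.94) and the G9Gl values of Thbs1 (0.94) and Ccn1 (0.95) were short of it. So were Sdc4 without S1S2 replicate 1 (0.96), and Ccn1 in G9Gl without G9Gl replicate 2 (0.98). Nedd9 in S1S2 was short of the limit without WT replicate 1, S1S2 replicate 1 or S1S2 replicate 3 (-0.99 to -0.96), and Fermt3 in G9Gl without WT replicate 1, WT replicate 2 or G9Gl replicate 1 (-0.99 to -0.94).

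**Figure D4:**
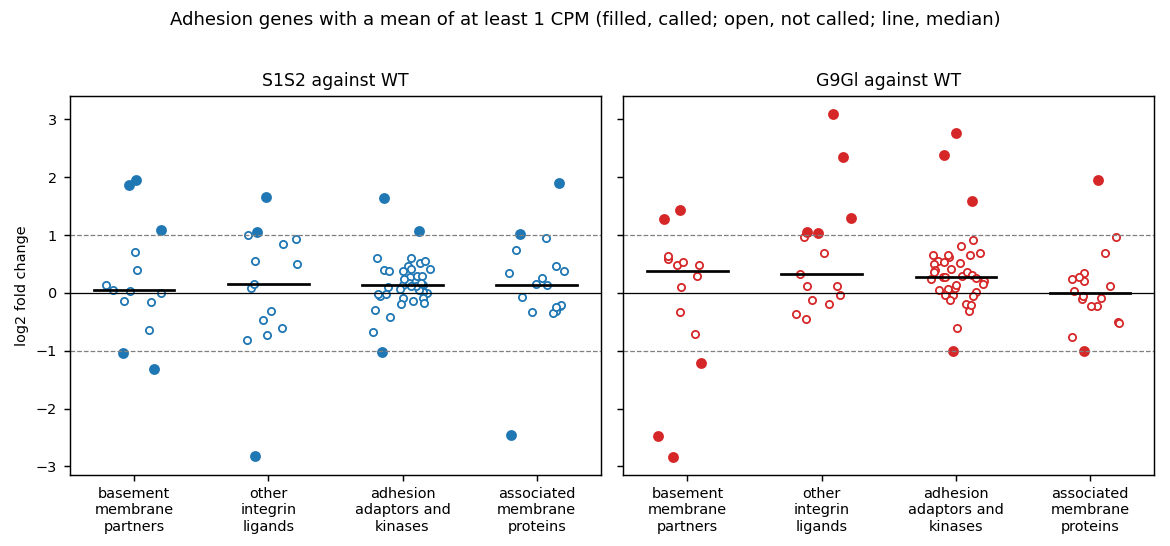
Log2 fold change against WT of 87 tested adhesion genes with a mean of at least 1 CPM over the 9 libraries, by list, with a point per gene, filled where called, a line at the median of each list and dashed lines at a fold change of 2. Most genes lie between the dashed lines in both mutants.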

How the data were processed

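The deposited values are raw counts of reads per Ensembl gene, whole numbers that the authors did not normalize. Per the study's methods, which were assumed to describe these libraries, stranded paired-end total RNA reads were trimmed (cutadapt), mapped to GRCm38 (STAR, 2.5.2b in the submitters' notes) and counted (TEtranscripts) by the authors. The annotation release and the use of strand in counting were not given in the sources used here. Multiply aligned reads can be shared among similar genes.

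Gene symbols and positions came from GENCODE M21, matched on the identifier without its version. The members and the gene lists were chosen with earlier results of these data known, and 1 further gene that the rule finds is not reported here and is in none of the counts of members. All 9 libraries entered 1 fit of edgeR 4.0.16 (R 4.3.3; TMM, filterByExpr, glmQLFit and glmQLFTest), with 15540 of 47937 genes tested, and 21449 genes had no count. Calls required an adjusted p (Benjamini-Hochberg, all genes tested) no higher than 0.01 with a fold change of 2 or more. SE come from the spread of log2 CPM with a prior count of 2. This narrows the spread at low counts, so the SE of genes with few counts can be smaller than counting error. Levels between genes are TMM-scaled CPM per kb of summed exons. The test was checked on simulated counts.

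Called members are described in full. Others past the p limit or among the 3 most abundant of their kind are named, and from each partner list up to 4 called genes per mutant with the largest change and a mean of at least 1 CPM. Ccn1 in G9Gl, and the marker genes given beside results, fall outside this rule and were chosen after their values were seen. Replicates differed by more than counting noise, so none was counted as a duplicate. Alternatives were DESeq2 1.42.0, other scalings, filters and call limits, a fit of only the libraries compared, removal of chromosome medians, the replicate block, and each library left out in turn. Replicate numbers of the titles do not pair the libraries. Marker lists of fibroblasts and of epithelial, hematopoietic, muscle and Schwann cells are given beside results. Endothelial markers summed to 0.123 to 0.193 CPM in WT, 1.55 to 1.75 CPM in S1S2 and 0.790 to 2.35 CPM in G9Gl.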

Additional observations from a re-analysis of the deposited data

Results flagged for a closer look

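For 4 genes the mutants moved in opposite directions from WT, with an adjusted p of at most 0.01 in each mutant and in the comparison of the mutants, from the fit of all 9 libraries. Since the genes were chosen for lying above WT in 1 mutant and below it in the other, the difference between the mutants is a description and no further support. G9Gl was above S1S2 by 5.69 on the log2 scale for Lamb3, by 3.50 for Lama2, by 0.91 for Itga7 and by 0.30 for Lamb2, and the first 2 differences were past the fold limit. With 3 libraries per genotype, single libraries were not examined as outliers.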

How the results depend on the processing

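Called integrin and laminin genes numbered 9 in S1S2, 9 in G9Gl and 8 between the mutants. With at least 10 counts required in every library, which tests fewer genes, these became 5, 4 and 3. At an adjusted p of 0.05 with no fold limit they became 17, 22 and 16. The share of all genes was not counted under either setting. At 0.01 with no fold limit, 16, 20 and 16 of the 26 tested passed, against 5895, 5438 and 6622 of all 15540 genes tested. Leaving out a library gave 5 to 9, 7 to 9 and 6 to 7, with 5 in S1S2 without WT replicate 1, where Itga2, Itgb6, Lama2 and Lamb3 were lost; the partner lists gave 14 to 17, 16 to 17 and 20 to 22. Where a left-out library leaves 2 in a genotype, the fit pools the spread over all. Same-numbered libraries deviated together in 2 of 9 pairs (correlations -0.0686 to 0.124), and 4 of 9 libraries correlated best with their own number. The fit with the replicate block called the same 9, 9 and 8 genes, and 15, 18 and 22 partners. DESeq2 called 9, 9 and 6 genes, missing Itga2 and Itgb4 between the mutants. Of 765 single-gene values under an alternative, 704 kept direction and call, 34 lost the call, 26 gained it under the looser limit, and Lamc1 in G9Gl reversed to 0.080 without chromosome medians. With the longest transcript as the length, Itgb7 and Itgb8, and Lama5 and Lamb1, exchanged ranks in WT. Other scalings moved the median of all genes by at most 0.029. Depth limits Itga2, Itgb3, Itgb4, Itgb6, Lama2, Lama3, Lamc3 and the genes not tested.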
